A study of Homo sapiens with 80 samples.

Results

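The comparison described here is the difference between A477T and GRalpha in the response of U2OS cells to dexamethasone at 4 h. It was taken for each gene as the change between 0 h and 4 h in A477T cells minus the same change in GRalpha cells. The 4 groups were A477T cells at 4 h and at 0 h and GRalpha cells at 4 h and at 0 h, chosen by sample title, with 4 arrays each. They make up 16 of the 80 arrays of a series on cells that each express 1 of 5 alleles of GR, the glucocorticoid receptor. The host, U2OS, is a line from a human osteosarcoma, and every culture was grown in DMEM with 5% fetal bovine serum. A time of 4 h means dexamethasone, a synthetic glucocorticoid, at 100 nM. A time of 0 h means ethanol, the vehicle, for the same 4 h, so the 2 times are matched in culture. The labels name A477T and GRalpha as the expressed alleles and state 4 biological replicates per condition. The sources used here do not say whether the cells of an allele are a pool or 1 clone, and an effect of the allele and a difference between the cell populations that carry it cannot be told apart.

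GR is a nuclear receptor that enters the nucleus when it binds a glucocorticoid. It binds glucocorticoid response elements (GREs), inverted repeats on which a pair of receptors sits head to head, and it raises transcription of nearby genes. It also lowers transcription of inflammatory and growth genes, often through sites of AP-1 or NF-kB. GRalpha is the common human receptor form. A477T, known from work on the rat receptor whose numbering it carries, replaces an alanine by a threonine in the loop of the DNA-binding domain through which paired receptors touch. It has been widely used as a receptor with impaired dimer contacts.

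Median signal of the 16 arrays ranged from 97 to 581 (82 to 925.75 over all 80), and between 13703 and 17042 probes were detected. The low ends were on A477T arrays. Probes detected ran from 13703 to 15690 in A477T at 4 h and from 14766 to 15991 at 0 h. In GRalpha they ran from 15002 to 16094 at 4 h and from 15619 to 17042 at 0 h. The lowest median signal was 97 in A477T and 198 in GRalpha. The part of this difference in the calls was not tested. Values below are normalised log2 signals, and differences are log2 differences with the standard error (SE) of a single limma model of all 80 arrays. Adjusted p-values are two-sided limma values, Benjamini-Hochberg adjusted over 12547 genes, and a gene was called when its value was under 0.05. Of 8 measured markers of the osteoblast lineage, RUNX2, ALPL, COL1A1, SPP1, TNFRSF11B and VIM were detected on all 16 arrays. IBSP was detected on 1, 1, 1 and 0 arrays of A477T 4 h, A477T 0 h, GRalpha 4 h and GRalpha 0 h. In the same order, 1, 1, 0 and 2 of the 8 markers were detected on no array of the group. The remaining marker was thus detected only in GRalpha at 4 h. The blood marker PTPRC was detected on 1, 0, 1 and 1 arrays of the same groups. The summed signal of the 5 measured blood markers was higher on every A477T array than on any GRalpha array at 0 h, 324.2 to 464.5 against 213.5 to 299.3, and overlapped at 4 h, 322.5 to 458.3 in A477T and 291.8 to 342.1 in GRalpha. None of the 5 had a called difference in response by limma or in level at 0 h (0 of 5 at an unadjusted p under 0.05 for the response). The summed signal of 8 epithelial markers was lower in A477T cells, 2046 to 2888 at 4 h and 1857 to 2437 at 0 h, than in GRalpha cells, 3212 to 5546 at 4 h and 2764 to 4357 at 0 h. KRT8 carried a level difference at 0 h of -2.20 (adjusted p = 4.2e-06 by limma), and none of the 8 had a called response difference. Of 6 liver markers 1, TF, had a called difference, and their summed signal was 4091 to 10720 in A477T and 3445 to 3696 in GRalpha at 4 h. At 0 h their sums overlapped, 3283 to 8621 in A477T and 2496 to 4064 in GRalpha. The part of these levels in the results was not tested. In bulk samples, fewer cells of a type and less RNA per cell cannot be told apart.

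Before hormone 294 genes differed in level between the alleles (2.34%), 162 higher (1.29%) and 132 lower (1.05%) in A477T. In A477T cells 418 genes were called at 4 h (3.33% of those tested), 241 higher (1.92%) and 177 lower (1.41%). In GRalpha cells 593 were called (4.73%), 352 higher (2.81%) and 241 lower (1.92%). The response itself differed between the alleles for 178 genes (1.42%), with 71 differences above 0 (0.566%) and 107 below 0 (0.853%). A response was counted as lost where the difference and the GRalpha response were called and the A477T response was not, and as gained where the difference and the A477T response were called and the GRalpha response was not. On that count 90 responses were lost, 81 rises and 9 falls, and 56 were gained, 51 rises and 5 falls. A further 16 rises were weakened, called in both alleles but smaller in A477T, and 10 rises were amplified. No fall was weakened or amplified. There were 2 genes called in opposite directions, and for 4 genes neither response alone was called. These classes follow from the calls that define them, so their own responses are a description. The sizes below depend on the processing: on the authors' deposited series matrix, of unknown normalisation, the differences of the 46 named genes with a called difference were a median of 0.55 times those given here.

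**Figure D1:**
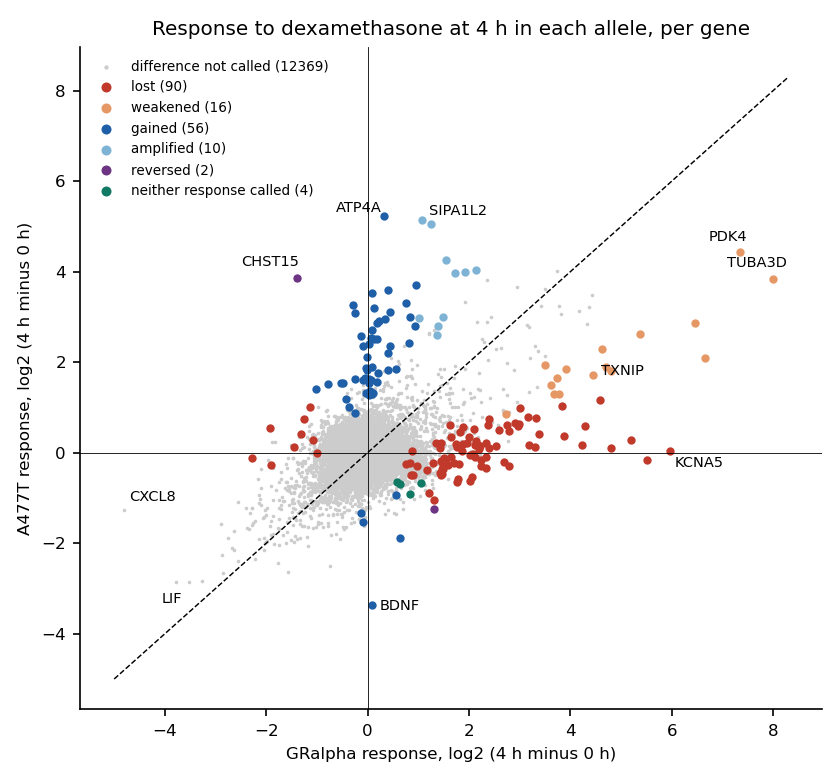
Response at 4 h (log2, 4 h minus 0 h) in A477T on the vertical axis and in GRalpha on the horizontal axis, 1 point per gene, with colours for the classes and a dashed line of equal response. Lost rises lie along the horizontal axis out to KCNA5 at 5.97 in GRalpha, gained rises along the vertical axis up to ATP4A at 5.22 in A477T, and large falls lie at different distances from the line, with LIF at -2.87 in A477T and -3.77 in GRalpha and CXCL8 at -1.27 in A477T and -4.81 in GRalpha.

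Of the 90 lost responses 65 had an A477T change under 0.5 in size, and 2 kept a change over 1 in the direction of GRalpha. The 81 lost rises had a median change of 0.10 in A477T (range -1.04 to 1.16) and of 2.05 in GRalpha (0.75 to 5.97). In A477T, 17 of them were detected on no array at 0 h or 4 h. For 23 no GRalpha array at 0 h detected the gene.

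The potassium channel gene KCNA5 had the largest lost rise. Its signal was 5.01, 5.62, 5.44 and 5.18 on the A477T 4 h arrays and 4.9, 5.39, 5.25 and 5.53 on the A477T 0 h arrays, against 11.12, 11.29, 11.54 and 11.48 on the GRalpha 4 h arrays and 5.3, 5.03, 5.13 and 6.1 on the GRalpha 0 h arrays. The 4 GRalpha 4 h arrays stood far above the other 12, which overlapped and of which 1 detected the gene. The change was 0.04 in A477T (SE 0.23) and 5.97 in GRalpha (SE 0.23, adjusted p = 1.4e-31 by limma), a difference of -5.92 (SE 0.33, adjusted p = 9.3e-23). At 4 h KCNA5 was at least 38-fold lower in A477T. Where a gene was detected on no array of a group, a fold is given as "at least", computed against whichever was higher on each array, the gene's signal or the dimmest detected probe.

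S100P, a calcium-binding protein gene, read 6.41, 4.88, 5.29 and 5.96 on the A477T 4 h arrays and 5.36, 4.99, 6.83 and 5.98 at 0 h. In GRalpha cells it read 11.7, 11.3, 9.23 and 9.36 at 4 h and 5.09, 4.79, 4.92 and 4.72 at 0 h. GRalpha 4 h replicates 1 and 2 were above replicates 3 and 4, and all 4 lay above every A477T array. The change was -0.16 in A477T (SE 0.63) and 5.52 in GRalpha (at least 24.6-fold), and the difference -5.67 (SE 0.89, adjusted p = 9.4e-06 by limma).

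TIPARP, which encodes a mono-ADP-ribosyltransferase, was bright on every array. It read 11.21, 10.9, 11.03 and 11.36 on the A477T 4 h arrays and 10.11, 9.74, 10.1 and 9.93 on the A477T 0 h arrays, against 14.57, 14.5, 13.68 and 13.79 on the GRalpha 4 h arrays and 9.91, 10.19, 8.85 and 9.28 on the GRalpha 0 h arrays. All A477T 4 h arrays were above all A477T 0 h arrays, so some change was visible there. It was 1.16 (SE 0.38, adjusted p = 0.084 by limma) in A477T and 4.58 (SE 0.38, 23.8-fold) in GRalpha. The difference was -3.42 (SE 0.53, adjusted p = 7.4e-06).

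Several lost rises were of genes that neither A477T group expressed above background. ART3, of the ADP-ribosyltransferase family, read 4.81 to 5.8 on the 8 A477T arrays, none of which detected it, and 9.38, 10.74, 10.55 and 10.43 on the GRalpha 4 h arrays, against 4.99 to 5.25 at 0 h. It was at least 17.9-fold lower in A477T at 4 h (difference of responses -4.90, SE 0.51, adjusted p = 9.1e-11 by limma). TF, the gene of the iron carrier transferrin, read 5.29, 5.28, 4.69 and 4.95 in A477T at 4 h, against 8.16, 9.32, 9.3 and 9.23 in GRalpha at 4 h. No A477T array and no GRalpha 0 h array detected TF, and it was at least 7.43-fold lower in A477T at 4 h (difference of responses -4.06, SE 0.45). TMIGD3, SLC25A18, a mitochondrial glutamate carrier gene, and SERPINF2, the gene of alpha-2-antiplasmin, had differences of -4.70, -3.72 and -3.53. SERPINF2 was detected on 1 A477T array, 4 h replicate 1 at 6.98.

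Lost rises included regulators of metabolism and of transcription. FOXO1, a forkhead factor of the fasting response, read 9.29, 9.11, 9.4 and 9.54 in A477T at 4 h and 9.85, 9.23, 10.78 and 10.05 at 0 h, against 11.02, 11.48, 10.96 and 10.68 in GRalpha at 4 h and 9.6, 9.62, 8.31 and 9.56 at 0 h. The GRalpha 4 h arrays lay above all other arrays except A477T 0 h replicate 3 (10.78), which exceeded GRalpha 4 h replicate 4. The FOXO1 changes were -0.64 in A477T (SE 0.32, not called) and 1.76 in GRalpha (SE 0.32, adjusted p = 4e-05 by limma), and the difference was -2.40 (SE 0.45, adjusted p = 0.00026). KLF15, a Krüppel-like factor that controls amino acid breakdown, changed by 0.98 in A477T (SE 0.32, adjusted p = 0.084, limma) and rose by 3.01 in GRalpha, a difference of -2.04 (SE 0.45, adjusted p = 0.0036). The glucose transporter gene SLC2A3 had a difference of -2.35 (-1.04 in A477T, not called, and 1.31 in GRalpha). PLIN2, which coats lipid droplets, had a difference of -1.08 (-0.23 in A477T and 0.84 in GRalpha), and its A477T level was already higher at 0 h (0.97, adjusted p = 0.00028 by limma). PIK3R1, the regulatory subunit of phosphoinositide 3-kinase, had a difference of -1.69 (0.20 in A477T and 1.89 in GRalpha).

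Genes of secreted factors and of their synthesis were also among the lost rises. PTGES, the inducible synthase of prostaglandin E, read 7.45, 6.22, 6.88 and 7.44 in A477T at 4 h and 5.05, 6.37, 7.34 and 5.14 at 0 h, against 8.01, 8.98, 9.03 and 9.02 in GRalpha at 4 h and 4.88, 5.15, 4.71 and 4.93 at 0 h. The A477T groups overlapped and the GRalpha groups did not. The PTGES difference was -2.82 (SE 0.55, adjusted p = 0.00045 by limma), from 1.02 in A477T (SE 0.39, adjusted p = 0.2) and 3.84 in GRalpha. WNT5A, a ligand of the Wnt family, read 6.71, 8.39, 7.94 and 7.61 in A477T at 4 h, against 11.01, 10.04, 10.33 and 10.31 in GRalpha at 4 h. It had a difference of -2.36 (SE 0.53, adjusted p = 0.004). PGF, placental growth factor, and CSF3, granulocyte colony-stimulating factor, had differences of -3.01 and -1.63. MT1X, a metal-binding metallothionein gene, had a difference of -2.60 (SE 0.66, adjusted p = 0.02 by limma), a call lost without any 1 of 5 arrays, A477T 4 h replicates 2 and 4, A477T 0 h replicate 2 or GRalpha 0 h replicates 2 and 4 (-2.09 to -2.45, adjusted p = 0.056 to 0.13). WNT5A, PGF, CSF3 and PIK3R1 were named after their values were seen.

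**Figure D2:**
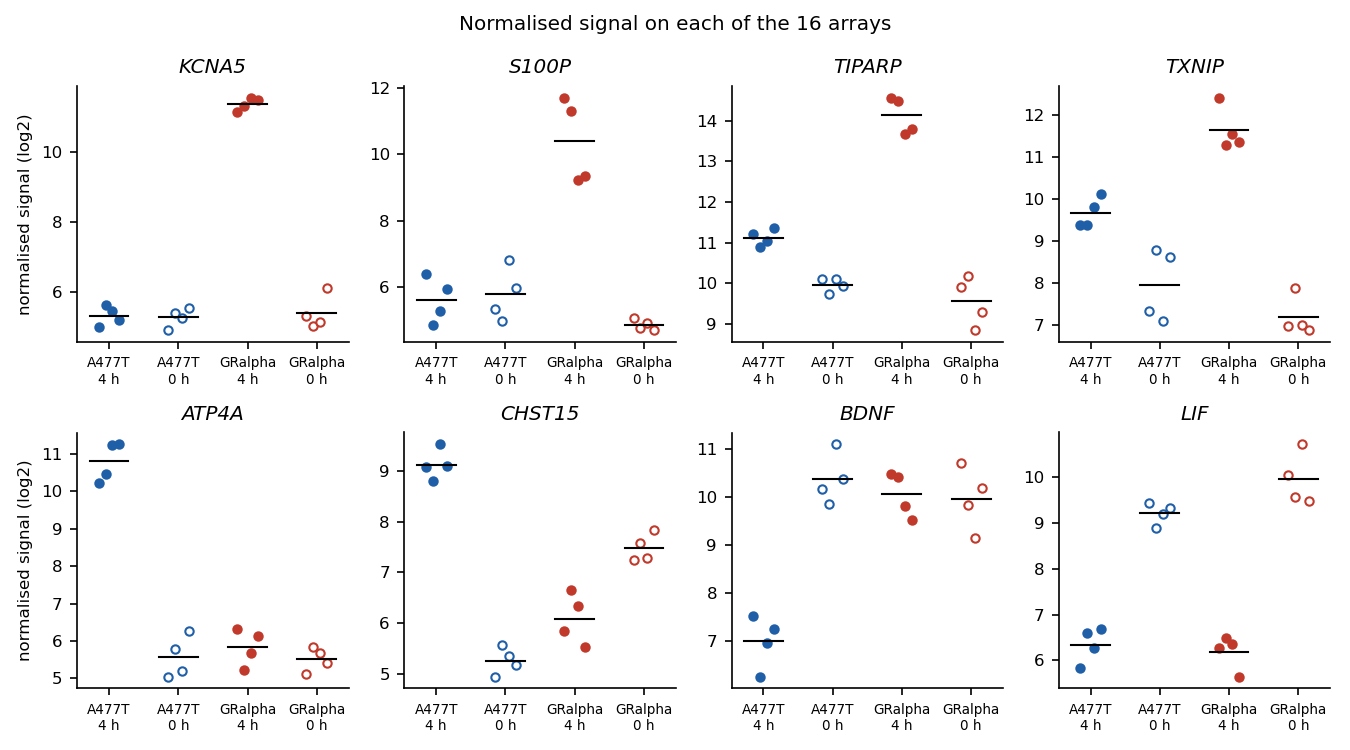
Normalised signal (log2) of 8 genes on each of the 16 arrays, with A477T in blue, GRalpha in red, filled points for 4 h, open points for 0 h and a bar at the group mean. KCNA5 and S100P are high only on GRalpha 4 h arrays, ATP4A only on A477T 4 h arrays, BDNF is low only on A477T 4 h arrays, and LIF is low at 4 h in both alleles.

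The 16 weakened rises had a median change of 1.87 in A477T and 4.54 in GRalpha. PDK4, a kinase that restrains pyruvate oxidation, read 9.65, 10.92, 9.81 and 10.24 in A477T at 4 h and 5.83, 5.31, 6.44 and 5.31 at 0 h, against 13.28, 12.6, 12.93 and 13.02 in GRalpha at 4 h and 5.52, 5.92, 5.26 and 5.78 at 0 h. The 0 h groups overlapped, and at 4 h every A477T array lay between them and the GRalpha arrays. It was detected on all 8 arrays at 4 h but at 0 h on only 1 of 4 A477T and 2 of 4 GRalpha arrays, so the size of both rises rests on a level at 0 h that was mostly not above background. PDK4 rose by 4.44 in A477T (SE 0.36) and by 7.34 in GRalpha (SE 0.36), a difference of -2.90 (SE 0.51, adjusted p = 7.1e-05 by limma). TXNIP, the thioredoxin inhibitor, read 9.38, 9.39, 9.82 and 10.13 in A477T at 4 h and 7.35, 8.78, 7.11 and 8.63 at 0 h, against 12.41, 11.28, 11.54 and 11.36 in GRalpha at 4 h and 6.99, 7.89, 7.01 and 6.89 at 0 h. A477T 0 h replicates 2 and 4 stood above replicates 1 and 3, and the 4 h groups did not overlap. TXNIP rose by 1.71 in A477T (SE 0.47) and by 4.45 in GRalpha (SE 0.47), a difference of -2.74 (SE 0.66, adjusted p = 0.0099 by limma).

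The alpha-tubulin gene TUBA3D read 9.04, 8.6, 9.98 and 9.24 in A477T at 4 h, against 12.83, 12.85, 13.14 and 13.09 in GRalpha at 4 h, and 4.62 to 6.23 on the 8 arrays at 0 h. At 0 h 1 of 4 A477T arrays and no GRalpha array detected it. It rose by 3.85 in A477T (SE 0.33), measured against that level, and at least 147-fold in GRalpha, a difference of -4.15 (SE 0.47, adjusted p = 1.3e-09 by limma). CACNA1I, of a T-type calcium channel, was detected on 3 A477T arrays at 4 h and on none at 0 h, against 4 GRalpha arrays at 4 h and 1 at 0 h. It rose by a fitted 2.10 in A477T (SE 0.49, at least 2.55-fold) and by 6.65 in GRalpha (SE 0.49). The fitted difference of -4.55 (SE 0.70, adjusted p = 5.7e-06 by limma) rests on those dim levels at 0 h, and its other kept probe had a difference of 0.09. FAM90A1 and RNASE12, of the ribonuclease A family, had differences of -3.59 and -3.00. LAD1, which encodes a basement membrane filament protein, and PTH1R, the parathyroid hormone receptor, had differences of -2.75 and -2.48. The lipid droplet gene CIDEC (-2.82), the pancreatic lipase gene PNLIP (-2.33), the sulfonylurea receptor gene ABCC8 (-2.12) and the scavenger receptor gene CD163 (-2.07), named after their values were seen, rose in both alleles and less in A477T.

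Promoters were compared with these classes through RefSeq sequences on GRCh38.p14, each of 250 bases before and 50 after the start site. Of the 81 lost rises 69 genes had a promoter in the table, of the 16 weakened rises 13, of the 51 gained rises 37 and of the 10 amplified rises 8. The GRE was searched on both strands as GNACA and TGTNC with any 3 bases between them. It was found in 1 of 69 lost rises (1.45%), 1 of 13 weakened rises (7.69%), 0 of 37 gained rises and 0 of 8 amplified rises. It was found in 24 of 10188 genes tested (0.236%) and in 106 of all 27305 promoters (0.388%). The lost one was KCNA5 (chr12:5043629-5043928, plus strand) with its first base at -210, and the weakened one TXNIP (chr1:145996530-145996829, minus strand) at -175. They are shown with PDK4 (chr7:95596467-95596766, minus strand), which held a half-site, and with ATP4A (chr19:35563609-35563908, minus strand), the largest gained rise, which held none of the motifs. Capitals mark the GRE or half-site.
KCNA5: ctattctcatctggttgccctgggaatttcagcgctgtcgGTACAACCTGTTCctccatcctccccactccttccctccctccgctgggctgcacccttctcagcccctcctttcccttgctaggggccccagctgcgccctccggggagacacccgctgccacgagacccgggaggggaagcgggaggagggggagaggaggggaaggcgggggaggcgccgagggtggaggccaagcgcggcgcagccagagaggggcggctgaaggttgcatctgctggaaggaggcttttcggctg
TXNIP: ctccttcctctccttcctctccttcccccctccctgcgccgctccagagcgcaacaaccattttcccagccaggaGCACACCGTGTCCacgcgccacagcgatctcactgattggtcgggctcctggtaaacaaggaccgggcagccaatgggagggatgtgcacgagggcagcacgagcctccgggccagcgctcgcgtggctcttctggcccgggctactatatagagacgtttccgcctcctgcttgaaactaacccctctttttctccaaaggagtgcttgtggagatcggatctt
PDK4: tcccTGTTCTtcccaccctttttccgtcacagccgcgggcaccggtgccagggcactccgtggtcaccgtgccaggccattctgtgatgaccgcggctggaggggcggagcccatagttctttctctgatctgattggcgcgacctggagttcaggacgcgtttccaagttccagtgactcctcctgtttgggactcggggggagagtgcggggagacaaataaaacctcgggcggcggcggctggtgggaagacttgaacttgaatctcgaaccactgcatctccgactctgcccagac
ATP4A: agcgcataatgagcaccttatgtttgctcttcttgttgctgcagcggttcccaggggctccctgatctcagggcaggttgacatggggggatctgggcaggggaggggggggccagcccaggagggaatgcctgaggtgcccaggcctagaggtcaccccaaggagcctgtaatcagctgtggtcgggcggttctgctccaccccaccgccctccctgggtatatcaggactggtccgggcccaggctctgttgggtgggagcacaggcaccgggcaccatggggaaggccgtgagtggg
The half-site AGAACA, which can overlap a GRE, was found in 8 lost rises (11.6%), 4 gained rises (10.8%) and 9.47% of genes tested. The AP-1 site TGANTCA was found in 4 lost rises (5.80%), 5 gained rises (13.5%) and 5.16% of genes tested. These are matches of letters in a short window, and no binding was measured.

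Only 9 falls of GRalpha were lost. BMP4, a bone morphogenetic protein gene, read 12.25, 11.75, 11.44 and 11.33 in A477T at 4 h and 11.82, 11.8, 12.4 and 11.88 at 0 h, against 10.85, 10.7, 10.68 and 10.56 in GRalpha at 4 h and 11.79, 13.46, 12.47 and 12.69 at 0 h. The A477T groups overlapped, and every GRalpha 4 h array lay below all other arrays. BMP4 changed by -0.28 in A477T (SE 0.27) and fell by 1.91 in GRalpha (SE 0.27), a difference of 1.63 (SE 0.39, adjusted p = 0.009 by limma). Its other kept probe gave 0.72, and the call was lost without GRalpha 0 h replicate 2 (1.34, adjusted p = 0.067). NOG, the gene of the BMP antagonist noggin, had a difference of 1.73 (0.42 in A477T and -1.31 in GRalpha, SE 0.44, adjusted p = 0.017), and was no longer called when replicate 3 or 4 of GRalpha at 4 h or replicate 2 of GRalpha at 0 h was left out (1.55 to 1.59).

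TRIM47, of the tripartite motif family, read 11.07, 10.93, 10.68 and 10.87 in A477T at 4 h and 10.49, 10.36, 10.17 and 10.38 at 0 h, against 8.14, 8.51, 7.29 and 7.63 in GRalpha at 4 h and 10.52, 10.05, 10.19 and 8.49 at 0 h. GRalpha 0 h replicate 4 stood near the GRalpha 4 h arrays. The TRIM47 difference was 2.46 (SE 0.57, adjusted p = 0.0064 by limma), from 0.54 in A477T (not called) and -1.92 in GRalpha. TUFT1, which encodes the enamel protein tuftelin, LRRC2 and PRR5L, of the mTORC2 kinase complex, had differences of 2.17, 2.14 and 2.01. TUFT1 changed by -0.11 in A477T and -2.28 in GRalpha, and PRR5L by 0.75 (not called) and -1.25. LRRC2 changed by 1.01 in A477T (not called) and by -1.14 in GRalpha (adjusted p = 0.045 by limma). No GRalpha 4 h array detected LRRC2. LRRC2 lost its call without GRalpha 0 h replicate 1 (1.77, adjusted p = 0.05). The other lost falls were VPS37B, of the ESCRT-I complex, the dopamine receptor gene DRD1 and NHSL3, at 1.0, 1.57 and 1.35.

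The 51 gained rises had a median change of 1.88 in A477T (0.88 to 5.22) and of 0.07 in GRalpha (-1.02 to 0.96). In GRalpha, 16 of them were detected on no array at 0 h or 4 h, and for 23 no A477T array at 0 h detected the gene. ATP4A, the catalytic subunit of the gastric proton pump, read 10.23, 10.46, 11.24 and 11.26 in A477T at 4 h and 5.05, 5.78, 5.21 and 6.27 at 0 h, against 6.33, 5.24, 5.67 and 6.12 in GRalpha at 4 h and 5.13, 5.84, 5.69 and 5.41 at 0 h. The A477T 4 h arrays stood far above the other 12, which overlapped. At 0 h 2 A477T arrays and no GRalpha array detected the gene. ATP4A rose by 5.22 in A477T (SE 0.38, adjusted p = 1.2e-17 by limma) and changed by 0.32 in GRalpha (SE 0.38), a difference of 4.90 (SE 0.54, adjusted p = 5e-10).

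S1PR4, a receptor for sphingosine 1-phosphate, read 9.35, 8.84, 8.96 and 9.1 in A477T at 4 h and 6.01, 5.24, 6.78 and 5.17 at 0 h, against 5.27, 5.56, 5.25 and 5.4 in GRalpha at 4 h and 5.51, 5.98, 6.0 and 5.15 at 0 h. It was at least 9.01-fold higher in A477T at 4 h (difference of responses 3.55, SE 0.44, adjusted p = 2.2e-08 by limma). PBX4, a homeodomain factor gene, read 10.73, 9.33, 10.28 and 10.39 in A477T at 4 h and 6.73, 6.85, 7.06 and 5.98 at 0 h, against 6.27, 7.05, 6.67 and 6.76 in GRalpha at 4 h and 6.34, 6.94, 6.69 and 6.41 at 0 h. Both genes were high only on the A477T 4 h arrays, and PBX4 had a difference of 3.44 (SE 0.47, adjusted p = 2.5e-07). SCGB2A1, a secretoglobin gene, and CHST13, a chondroitin sulfotransferase gene, were detected on no GRalpha array at 0 h or 4 h and were at least 6.21-fold and 5.15-fold higher in A477T at 4 h. RBBP8NL, IL1F10, an interleukin-1 family cytokine gene, and LDB2, a partner of LIM domain factors, had differences of 3.33, 2.75 and 2.71. RBBP8NL was detected on 3 A477T arrays at 4 h, with replicate 2 lowest at 6.11. IL1F10 changed by 0.96 in GRalpha at 4 h (not called). At 24 h IL1F10 rose by 2.37 in GRalpha (adjusted p = 1.1e-07 by limma) and by 6.08 in A477T.

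Other gained rises, named after their values were seen, belonged to varied tissues and roles. CTSH, the lysosomal protease cathepsin H, was well expressed on all arrays and read 12.68, 12.45, 12.58 and 12.83 in A477T at 4 h and 9.45, 9.94, 9.17 and 9.54 at 0 h, against 10, 10.36, 10.09 and 10.4 in GRalpha at 4 h and 10.04, 9.98, 9.72 and 9.33 at 0 h. The A477T 4 h arrays lay above all others, and the difference was 2.67 (SE 0.35, adjusted p = 8.4e-08 by limma). The intestinal cholesterol transporter gene NPC1L1 (2.69), the transcription factor genes STAT4 (2.40) and MYOG (1.80, myogenin of muscle), the matrix proteoglycan gene VCAN (2.30) and the growth factor receptor gene PDGFRB (1.62) had differences in the same direction. MYOG was detected on no GRalpha array at 0 h or 4 h, and VCAN had a change of 1.53 in A477T and of -0.78 in GRalpha (not called).

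The 10 amplified rises had a median change of 3.99 in A477T and of 1.44 in GRalpha. SIPA1L2, of a family of Rap GTPase activators, read 10.84, 11.16, 10.98 and 11.88 in A477T at 4 h and 6.29, 5.75, 6.08 and 6.15 at 0 h, against 6.26, 6.66, 6.68 and 6.49 in GRalpha at 4 h and 5.42, 5.45, 5.74 and 5.21 at 0 h. The 4 h and 0 h arrays did not overlap within either allele, though A477T 0 h replicate 1 reached the lowest GRalpha 4 h array. SIPA1L2, detected on 3 of 4 A477T arrays at 0 h, rose by 5.15 in A477T (SE 0.28, 35.4-fold). In GRalpha it rose by a fitted 1.07 (SE 0.28, at least 1.68-fold, adjusted p = 0.0079 by limma). The SIPA1L2 difference was 4.08 (SE 0.39, adjusted p = 6.6e-12 by limma). KDF1, a keratinocyte differentiation gene, and LYPD6B had differences of 3.81 (SE 0.44) and 2.70 (SE 0.36). TMEM100, named after its values were seen, read 12.35 to 12.68 in A477T and 12.16 to 12.57 in GRalpha at 4 h but 7.92 to 8.99 in A477T and 9.72 to 10.87 in GRalpha at 0 h. The alleles overlapped at 4 h and were apart at 0 h, and the difference of responses was 1.88 (SE 0.41, adjusted p = 0.0024 by limma).

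Falls gained in A477T numbered 5. BDNF, brain-derived neurotrophic factor, read 7.52, 6.27, 6.97 and 7.27 in A477T at 4 h and 10.17, 9.85, 11.1 and 10.38 at 0 h, against 10.48, 10.41, 9.81 and 9.52 in GRalpha at 4 h and 10.71, 9.83, 9.14 and 10.19 at 0 h. The A477T 4 h arrays were the only low ones. BDNF fell by 3.37 in A477T (SE 0.39, adjusted p = 5.9e-10 by limma) and changed by 0.09 in GRalpha (SE 0.39), a difference of -3.46 (SE 0.55, adjusted p = 1.2e-05). The 5 other kept BDNF probes had differences of -0.59, -0.07, -1.91, -0.92 and -0.89, all smaller in size. PHLDA1, a feedback gene of growth factor signalling, fell by 1.89 in A477T (SE 0.28) and changed by 0.64 in GRalpha (SE 0.28, not called), a difference of -2.53 (SE 0.39, adjusted p = 7.4e-06).

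DUSP1, the phosphatase that switches off MAP kinases, read 12.1, 11.87, 12.09 and 12.37 in A477T at 4 h and 12.94, 12.59, 13.65 and 12.97 at 0 h, against 13.67, 13.73, 13 and 13.1 in GRalpha at 4 h and 12.78, 13.9, 12.03 and 12.54 at 0 h. The A477T groups did not overlap and the GRalpha groups did. DUSP1 fell by 0.93 in A477T (SE 0.26, adjusted p = 0.023 by limma) and changed by 0.56 in GRalpha (SE 0.26, adjusted p = 0.3), a difference of -1.49 (SE 0.37, adjusted p = 0.012). That call was lost without A477T 0 h replicate 3 (-1.29, adjusted p = 0.066) or GRalpha 0 h replicate 3 (-1.23, adjusted p = 0.088). MEF2D, a MADS-box factor gene, and ARHGEF3 had differences of -1.44 (adjusted p = 0.045) and -1.21 (adjusted p = 0.023). Leaving out 1 array ended the MEF2D call for 11 of the 16 arrays (adjusted p up to 0.24) and the ARHGEF3 call for 5 (up to 0.13).

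The 2 reversed genes were CHST15, a chondroitin sulfotransferase gene, and PLAUR, the urokinase receptor gene. CHST15 read 9.07, 8.79, 9.53 and 9.1 in A477T at 4 h and 4.95, 5.56, 5.35 and 5.17 at 0 h, against 5.84, 6.66, 6.34 and 5.52 in GRalpha at 4 h and 7.24, 7.58, 7.28 and 7.83 at 0 h. The A477T 4 h arrays were the highest, the GRalpha 0 h arrays came next, and the A477T 0 h and GRalpha 4 h arrays overlapped. The alleles differed before hormone (-2.22 at 0 h, adjusted p = 1.8e-05 by limma). CHST15 rose by a fitted 3.86 in A477T (SE 0.36, at least 8.87-fold) and fell by 1.39 in GRalpha (SE 0.36). The CHST15 difference was 5.26 (SE 0.51, adjusted p = 6.6e-12 by limma). PLAUR read 10.45, 11.13, 11.15 and 11.31 in A477T at 4 h and 12.4, 12.35, 11.86 and 12.4 at 0 h, against 13.2, 13.27, 13.29 and 12.84 in GRalpha at 4 h and 12.03, 11.83, 12.0 and 11.51 at 0 h. The 0 h groups overlapped and the 4 h groups moved apart. PLAUR fell by 1.25 in A477T (SE 0.23) and rose by 1.31 in GRalpha (SE 0.23), a difference of -2.55 (SE 0.33, adjusted p = 6.6e-08), with -2.61 on its other kept probe.

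Most textbook glucocorticoid targets had no called difference. TSC22D3, the leucine zipper protein GILZ, read 11.25, 10.73, 10.81 and 11.62 in A477T at 4 h and 10.3, 9.93, 9.89 and 10.5 at 0 h, against 12.87, 11.66, 12.32 and 12.12 in GRalpha at 4 h and 10.38, 9.85, 8.99 and 9.07 at 0 h. Within each allele the 4 h arrays lay above the 0 h arrays, and every GRalpha 4 h array lay above every A477T array. TSC22D3 changed by 0.95 in A477T (SE 0.35, adjusted p = 0.18 by limma) and rose by 2.67 in GRalpha (SE 0.35), a difference of -1.72 (SE 0.50, adjusted p = 0.062). A fit that blocked on the slide called it (-1.93, adjusted p = 0.0065 by limma), and its 2 other kept probes had differences of -2.50 and -2.37. ZBTB16, a zinc finger repressor, rose by a fitted 3.07 in A477T (SE 0.41, at least 4.96-fold) and by 3.81 in GRalpha (SE 0.41, 14-fold). The ZBTB16 difference was -0.73 (SE 0.58, adjusted p = 0.92 by limma). The kinase gene SGK1 rose by 1.12 in A477T and by 1.31 in GRalpha (difference -0.19, SE 0.44). KLF9 (-1.0), PER1 (-0.09), ANGPTL4 (-0.06) and GLUL (0.09) had no called difference and no called response in either allele at 4 h. The 95% interval of the KLF9 difference ran from -1.84 to -0.17. The KLF9 level at 4 h was lower in A477T (-0.98, adjusted p = 0.028 by limma), and the 4 h groups did not overlap. KLF9 rose in GRalpha at 2 h (1.27, adjusted p = 0.0056 by limma) and at 24 h (1.4, adjusted p = 0.00018). At those times its A477T response and the difference of responses were not called. FKBP5 and IGFBP1 were not analysed here. NR3C1, the GR gene, fell by 2.02 in A477T and by 1.84 in GRalpha (difference -0.18, SE 0.53). At 4 h NR3C1 was detected on 2 of 4 A477T and 3 of 4 GRalpha arrays, so background limits the size of both falls and of their difference. Its probes cannot check the expressed alleles, because their place in the construct is not stated in these sources.

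A called difference was found for 108 of the 352 genes called higher in GRalpha (30.7%). It was found for 10 of the 241 called lower (4.15%) and for 1.42% of all genes. In A477T 109 of those rises (31%, against 1.92% of all genes) and 98 of those falls (40.7%, against 1.41%) were called the same way. Among rises of 2.5 or more in GRalpha, 40 of 70 differed (57.1%), with medians of 1.38 in A477T and 3.37 in GRalpha. Among falls of that size 0 of 12 differed by limma (2 at an unadjusted p under 0.05), 10 of 12 were called lower in A477T too, with medians of -2.20 in A477T and -2.87 in GRalpha. The GRalpha change is part of the difference, so its size and the share are not independent, and the size ranges were chosen after the values were seen. Another 161 rises and 133 falls of GRalpha were called in neither A477T nor the difference, and for them these data do not say which response was larger.

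**Figure D3:**
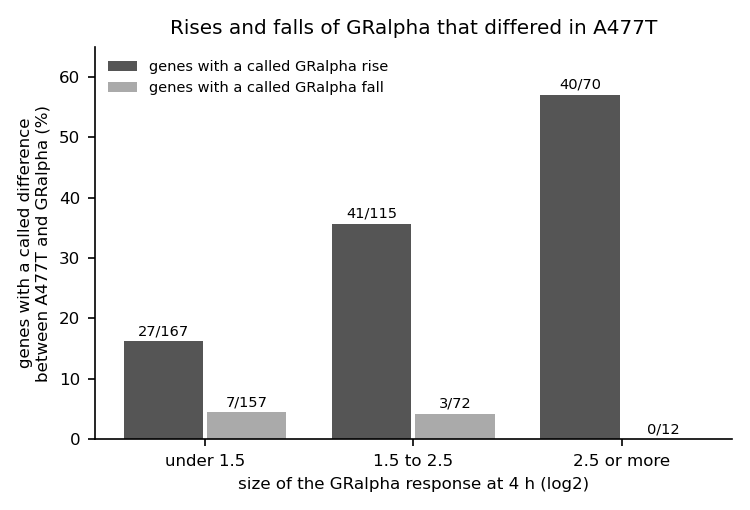
Share of genes called at 4 h in GRalpha whose response differed in A477T (percent, with counts above the bars), by direction and by the size of the GRalpha change (log2). For rises the share was 16.2%, 35.7% and 57.1% with increasing size, and for falls 4.46%, 4.17% and 0%. Over all genes it was 1.42%.

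LIF, a cytokine gene, read 5.83, 6.59, 6.27 and 6.68 in A477T at 4 h and 9.44, 8.88, 9.2 and 9.32 at 0 h, against 6.26, 6.48, 6.35 and 5.64 in GRalpha at 4 h and 10.06, 9.57, 10.72 and 9.48 at 0 h. The 4 h groups overlapped. LIF fell by 2.87 in A477T and by 3.77 in GRalpha (SE 0.35 each), and the 95% interval of the difference ran from -0.07 to 1.88. CCL2, a monocyte chemokine gene, fell by 2.85 in A477T and by 3.52 in GRalpha (interval of the difference -1.25 to 2.59). IRS1, the insulin receptor substrate, fell by 2.25 in A477T and by 2.87 in GRalpha (-0.17 to 1.41). HBEGF, a ligand of the EGF receptor, fell by 1.88 in A477T and by 2.75 in GRalpha, and its interval of 0.11 to 1.65 lay above 0 although its adjusted p was 0.55 by limma.

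CXCL8, a neutrophil chemokine gene, read 13.13, 12.79, 12.47 and 13.89 in A477T at 4 h and 13.9, 13.33, 15.64 and 14.49 at 0 h, against 9.82, 9.87, 5.3 and 6.11 in GRalpha at 4 h and 13.69, 15.19, 10.48 and 11 at 0 h. GRalpha replicates 3 and 4 were low at both times, and the 4 h groups did not overlap. Between arrays of the same number the change was -0.78, -0.54, -3.17 and -0.61 in A477T and -3.87, -5.32, -5.17 and -4.89 in GRalpha, and these did not overlap either. CXCL8 changed by -1.27 in A477T (SE 0.94, not called) and fell by 4.81 in GRalpha (SE 0.94), and the difference of 3.54 (SE 1.33, adjusted p = 0.33 by limma) was not called. With the replicate number as a block the same difference had an SE of 1.17 (adjusted p = 0.16), and with the number as a block within each allele, a fit added after the values were seen, an SE of 1.03 (adjusted p = 0.067). Blocked on the slide it was 4.20 (SE 1.28, adjusted p = 0.093). It was called in none of these limma fits, though its 95% interval without a block, 0.88 to 6.20, lay above 0.

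A further list was chosen by responses of the 3 other alleles. Its group means came from other arrays, but normalisation, filter and spread were shared with the 4 groups through the single model. Genes called higher at 4 h in all of GRgamma, a splice form with an added arginine in the DNA-binding domain, 30iiB, changed in the activation function AF1, and E773R, changed in AF2, numbered 62. Their median change was 1.49 in A477T and 2.92 in GRalpha. Of the 62, 41 were called higher in A477T (1.92% of all genes) and 61 in GRalpha (2.81%). The change was smaller in A477T for 53. A smaller rise than in GRalpha was not particular to A477T. In E773R all but ARC, XIRP1, RP1L1, PHACTR3 and TLE3 rose less than in GRalpha, and most also rose less in GRgamma and in 30iiB. Differences of these 3 alleles from GRalpha were not tested. The difference between A477T and GRalpha was called below 0 for 28 of the 62, where 0.853% of all genes were. It was called above 0 for 4, against 0.566%. Genes called lower in all 3 numbered 26, with medians of -1.45 in A477T and -1.82 in GRalpha. Of these 16 were called lower in A477T (1.41% of all genes) and 25 in GRalpha (1.92%). In A477T 22 changed less than in GRalpha, and that difference was called for 1, TUFT1. Most of these genes also fell less in E773R than in GRalpha.

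Group means at 2 h and 24 h came from arrays outside the 4 groups, although those arrays shared the normalisation and the estimate of spread behind the 4 h calls. Of the 81 lost rises, 44 were lower in A477T than in GRalpha at 2 h (54.3%, against 2.72% of all genes) and 59 at 24 h (72.8%, against 5.07%). At 24 h 2 were higher, among them PTGES (2.47, adjusted p = 8.6e-07 by limma). Of the 51 gained rises, 32 were higher in A477T at 2 h (62.7%, against 2.16%) and 39 at 24 h (76.5%, against 6.26%). KCNA5 was lower by 5.39 at 2 h and by 4.30 at 24 h, and PBX4 was higher by 1.17 at 2 h and by 4.35 at 24 h. STAT4 was higher by 2.32 at 2 h and by 5.55 at 24 h. Of the 16 weakened rises 15 were lower in A477T at 2 h and 13 at 24 h, and of the 9 lost falls 3 were higher at 2 h and 5 at 24 h. The level of CHST15, which was lower in A477T at 0 h, differed by 0.17 at 2 h (not called) and was higher by 3.00 at 24 h.

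**Figure D4:**
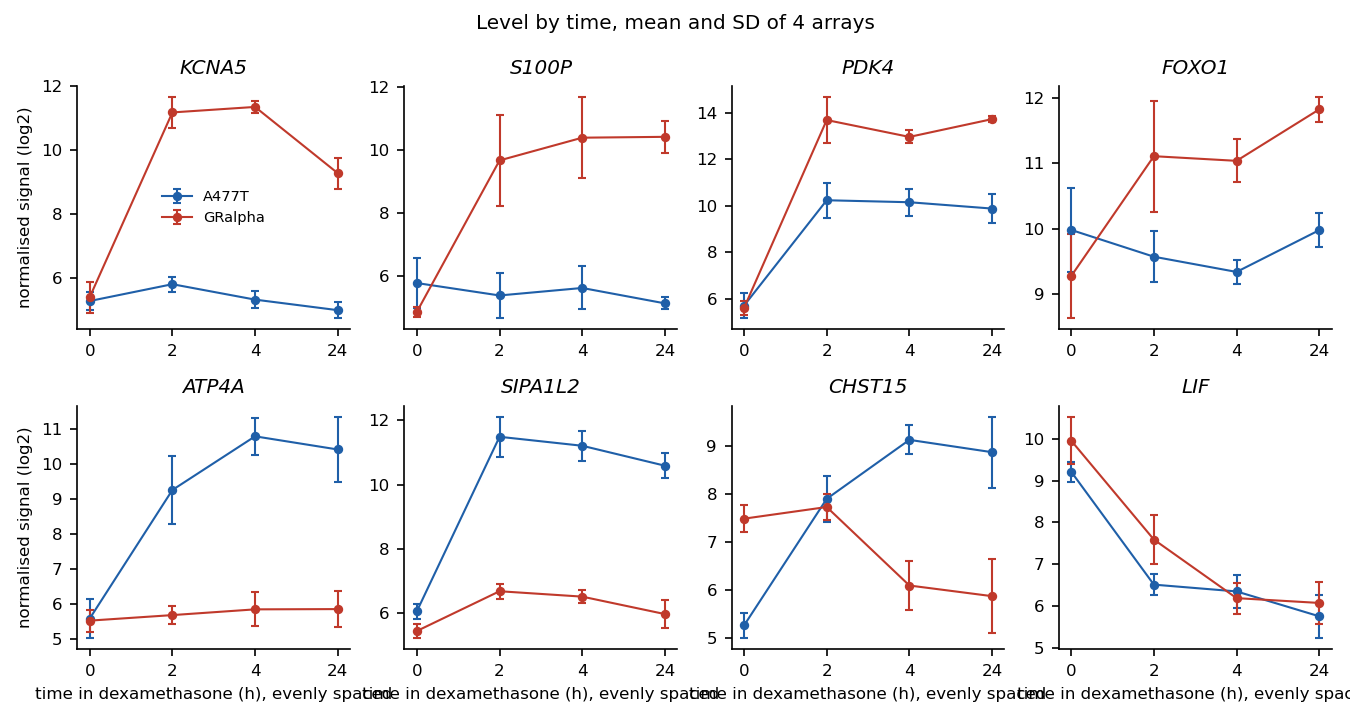
Normalised signal (log2, mean and SD of 4 arrays) of 8 genes in A477T (blue) and GRalpha (red) at 0, 2, 4 and 24 h, drawn at even spacing. KCNA5, S100P, PDK4 and FOXO1 are higher in GRalpha at 2, 4 and 24 h, ATP4A and SIPA1L2 are higher in A477T at those times, CHST15 crosses between 0 h and 4 h, and LIF is low in both alleles at 4 h and 24 h.

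The group means behind the 4 h responses of the other 3 alleles also came from other arrays of the same model. Of the 81 lost rises, 50 were called higher in GRgamma (61.7%, against 2.96% of all genes), 60 in 30iiB (74.1%, against 2.38%) and 19 in E773R (23.5%, against 0.741%). In 15 the rise was called in all 3 and in 14 in none. KCNA5 rose by 6.13 in GRgamma, 6.27 in 30iiB and 4.08 in E773R, and TIPARP by 3.5, 3.84 and 3.3. Of the 51 gained rises, 7 were called higher in GRgamma, 8 in 30iiB and 1 in E773R, and 41 in none of them. ATP4A changed by 0.80, 0.75 and -0.21 in GRgamma, 30iiB and E773R, and PBX4 by 0.19, -0.75 and -0.02. IL1F10 rose by 1.98 in 30iiB. Of the 9 lost falls, 3 were called lower in GRgamma (1.39% of all genes), 6 in 30iiB (2.03%) and 1 in E773R (0.399%). The 16 weakened rises were called higher in 15 cases in GRgamma, 16 in 30iiB and 13 in E773R.

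**Figure D5:**
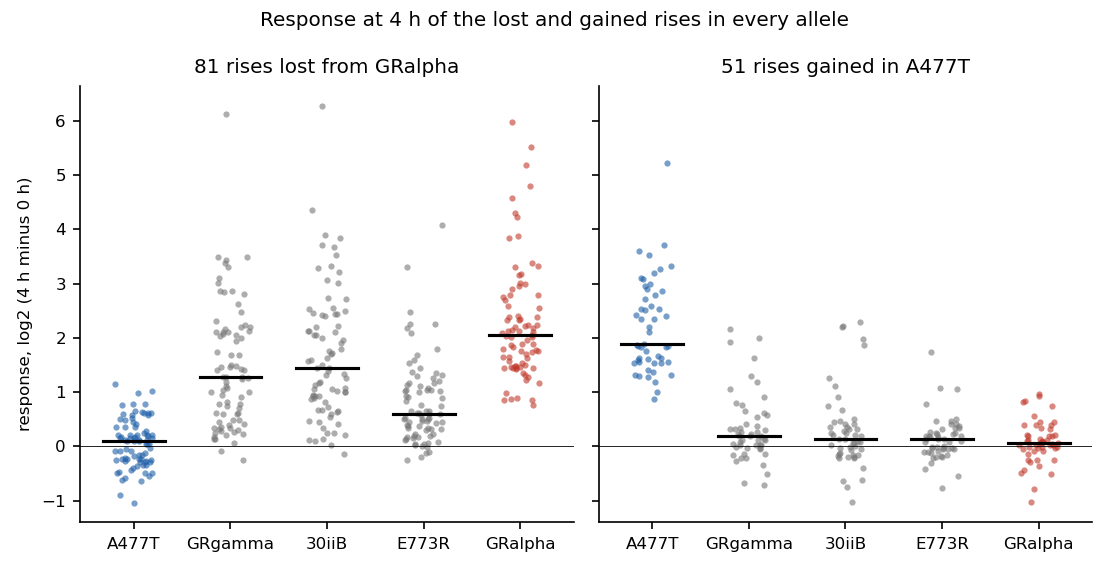
Response at 4 h (log2, 4 h minus 0 h) of the 81 lost rises and the 51 gained rises in each allele, 1 point per gene with a bar at the median. Medians of the lost rises were 0.10 in A477T, 1.27 in GRgamma, 1.45 in 30iiB, 0.61 in E773R and 2.05 in GRalpha, and medians of the gained rises were 1.88, 0.19, 0.14, 0.13 and 0.07 in the same order.

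Gene lists are described by their counts, beside 1.42% called and a median difference of 0.01 over all genes. Of 23 measured glucocorticoid-induced genes 4 had a called difference, all below 0 (17.4%), and they were S100P, TIPARP, LAD1 and DUSP1. In that list 7 rose and 1 fell in A477T (1.92% and 1.41% of all genes) and 12 rose in GRalpha (2.81%), with median changes of 0.44 in A477T and 1.31 in GRalpha. Of 28 metabolic genes (glucose, lipids, amino acids) 4 differed (14.3%), PDK4, TXNIP, SLC2A3 and PLIN2, although the median difference of the list was -0.02. Of 27 transcription factors induced by steroid receptors 2 differed, FOXO1 and KLF15, of 19 ion and water transport genes 2, KCNA5 and CACNA1I, and of 6 metallothioneins 1, MT1X. Of 20 inflammatory mediators PTGES differed, with 1 rise and 3 falls in A477T and 1 rise and 5 falls in GRalpha. Among 17 genes that restrain NF-kB or MAPK signals 1 differed, DUSP1, of 13 genes of EGF receptor ligands and feedback PHLDA1, and of 19 cell cycle inhibitors FOXO1. Of 21 TGF-beta and YAP targets BMP4 differed, of 19 bone matrix genes BMP4 and PTH1R, and of 24 adhesion and cytoskeleton genes TUBA3D. No member was called by limma in 9 further lists. An unadjusted p under 0.05, met by 877 of all 12547 genes, was met by 0 of 17 clock genes, 0 of 15 immediate early genes, 0 of 20 apoptosis regulators, 0 of 25 S phase genes, 0 of 22 mitosis genes, 0 of 14 interferon response genes, 1 of 21 stress response genes, 1 of 15 hypoxia genes and 0 of 19 receptor, chaperone and coregulator genes.

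No slide held all 4 groups, so the difference could not be taken within 1 slide. Blocked on the slide, 201 genes differed. Both times of an allele shared a slide for 2 pairs of arrays in A477T and 1 pair in GRalpha. On those arrays, which are among the 16 that gave the calls, the difference was -6.27 for KCNA5, -3.75 for TIPARP, 4.89 for ATP4A and -3.15 for BDNF, and -3.76 for S100P, smaller than its -5.67 over all arrays, with no test. Just inside the threshold lay SCRG1 (-2.08, adjusted p = 0.0496 by limma) and just outside ARHGAP22 (1.48, adjusted p = 0.0529).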

How the data were processed

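Gene expression was measured on single-colour bead arrays of biotin-labelled total RNA. The deposited table gave an intensity for each of 25204 probes, not normalised between arrays per the file headers, and a deposited detection p-value beside it. The sources used here do not name the scanner software. The authors' deposited series matrix holds log2 values of 21241 probes, judged by their slope on the log2 signal of each array (median 0.963). Array medians lie between 7.89 and 7.97, and its normalisation is unknown. All 80 signal arrays correlated best with their own column (lowest 0.938), but only 61 of the 80 columns correlated best with their own signal array.

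From the intensities, neqc of limma 3.58.1 (R 4.3.3) gave normexp-corrected (offset 16), quantile-normalised log2 values. Of the probes 19291 had 1 gene symbol in the platform annotation, 0 several and 5913 none here. Detection (p under 0.05) on 4 or more of the 80 arrays was required, which 15392 probes met, and each of 12547 genes took its probe with the highest mean. Other kept probes were compared for the named genes. All contrasts came from 1 limma model of 20 group means, with 60 residual degrees of freedom and 5.54 from the prior, with Benjamini-Hochberg adjustment. The code was tested on simulated data. Bounds for undetected genes used the lowest detected log2 value of each array (5.532 to 6.468). The number of arrays limits the precision.

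Genes named by rule were the largest of each class and direction (8 lost rises, 6 lost falls, 8 gained rises, 6 gained falls, 4 weakened rises, 3 amplified and 3 reversed, as far as they existed), with the 4 A477T changes all on 1 side of the 4 GRalpha changes and placeholder symbols passed over, plus 11 textbook targets and up to 4 called members of each list. The classes and lists were chosen with earlier results of these data known. Plots used matplotlib 3.10.9 (Python 3.11.15).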

Additional observations from a re-analysis of the deposited data

Results flagged for a closer look

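The response to dexamethasone differed between the 2 alleles for 178 genes by the test of the difference itself. It ran in opposite directions for PLAUR (difference -2.55) and CHST15 (5.26). Probes with no gene name here, which the comparisons above do not use, held 42 called differences among 4100 kept probes, 15 above 0 and 27 below 0.

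For the named genes, 216 groups of 4 arrays were searched for 1 array far from the other 3, and 14 were found, where chance gives about 1 in 20 groups. In A477T at 4 h these were KLF9 on replicate 4 (11.95, others 11.64 to 11.69), NR3C1 on replicate 2 (4.92, others 5.9 to 6.01) and SERPINF2 on replicate 1 (6.98, others 5.37 to 5.61). In A477T at 0 h, replicate 3 stood apart for ARHGEF3 (12.04, others 11.2 to 11.27), BMP4 (12.4, others 11.8 to 11.88) and PLAUR (11.86, others 12.35 to 12.4). In GRalpha at 4 h, replicate 1 stood apart for CACNA1I (11.15, others 12.12 to 12.19), FAM90A1 (12.72, others 11.67 to 11.84), PTGES (8.01, others 8.98 to 9.03) and TF (8.16, others 9.23 to 9.32), and replicate 2 for PTH1R (9.55, others 9.33 to 9.36). In GRalpha at 0 h, FOXO1 stood apart on replicate 3 (8.31, others 9.56 to 9.62), and TMIGD3 (4.93, others 4.69 to 4.73) and TXNIP (7.89, others 6.89 to 7.01) on replicate 2. CACNA1I, FAM90A1, FOXO1, PLAUR, PTGES, PTH1R, SERPINF2, TF, TMIGD3 and TXNIP kept their called difference without any 1 array.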

How the results depend on the processing

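The counts and the named genes were recomputed under 28 alternatives, of which 16 left out 1 array and 1, a replicate block within each allele, was chosen after seeing the data. Leaving out 1 array gave 139 to 188 differences (57 to 72 above 0 and 80 to 118 below 0), 62 to 96 lost and 45 to 57 gained responses and 352 to 422 calls in A477T. With arrays scaled to the same median in place of quantiles there were 93 differences (28 above 0 and 65 below 0), 52 lost, 21 gained and 273 calls in A477T, and the median difference of all genes was -0.102, against 0.007. With array weights there were 366 differences (160 above 0 and 206 below 0), 156 lost and 112 gained. That setting gave 979 calls in A477T and 849 in GRalpha, the reverse order of the 418 and 593 calls without weights. Which allele had more called genes thus depended on the weighting of the arrays. The series matrix gave 906 calls in A477T and 1350 in GRalpha. The cause of these shifts was not tested. The other alternatives kept each of these counts within 1.5 times, namely only the 16 arrays (141 differences), slide as a block (201), no background correction (202), no detection filter (179), a stricter one (168), every kept probe (188) and an intensity trend (178).

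Of 46 named genes with a called difference 35 kept the call in every alternative and 11 lost it in at least 1, and none changed direction. Sizes were less stable: for 33 of the 46 the log2 difference shrank by over 1.5 times in at least 1 alternative, 29 of them among those that kept the call. This occurred with the series matrix (33 genes, median 0.55 of the reported difference, lowest 0.34) and without background correction (19 genes, median 0.71, lowest 0.48), and for no gene when 1 array was left out. With the series matrix KCNA5 was -2.98, ART3 -2.46, CHST15 2.14, ATP4A 2.64 and CHST13 1.17. The genes that lost the call were ARHGEF3, BMP4, DUSP1, IL1F10, KLF15, LRRC2, MEF2D, MT1X, NOG, PLIN2 and TUFT1. TSC22D3 was called in 8 alternatives.

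With the replicate number as a block there were 195 differences, 97 lost and 61 gained, and with a replicate block within each allele 200, 105 and 57. Deviations from the group means correlated above 0.1 for 10 of 24 pairs of the same number (-0.462 to 0.515). Replicate 1 did so in all 6 of its pairs (0.104 to 0.515), numbers 2, 3 and 4 in 1, 2 and 1 of 6, and GRalpha at 4 h with GRalpha at 0 h for 3 of 4 numbers (-0.001 to 0.473). Since not every pair did, and 4 of 16 arrays matched their own number best, the numbers were not taken to pair the samples. Signal over background limits the values of dim genes: 17 of 81 lost rises were detected on no A477T array at 0 h or 4 h and 16 of 51 gained rises on no GRalpha array at those times, so a small change there would not be measured.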

Other observations

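For 4 genes the difference was called although neither response was. MFSD2A, a lysophospholipid transporter gene, read 7.16, 5.56, 6.43 and 5.48 in A477T at 4 h and 6.9, 7.3, 7.04 and 7.05 at 0 h, against 7.51, 7.57, 8.05 and 7.97 in GRalpha at 4 h and 6.72, 7.85, 6.53 and 6.62 at 0 h. Its change was -0.91 in A477T and 0.85 in GRalpha, and the difference -1.76 (SE 0.40, adjusted p = 0.0056 by limma). CBLB, a ubiquitin ligase gene, had changes of -0.65 in A477T and 0.58 in GRalpha (difference -1.23), and RASSF7 and NIBAN2 had differences of -1.72 and -1.32.

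Response differences taken at the other times used the same 0 h arrays as the one at 4 h, so no overlap is drawn. At 2 h 58 genes differed (0.462%), 23 above 0 and 35 below 0, and at 24 h 632 differed (5.04%), 322 above 0 and 310 below 0.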
